A study of Mus musculus with 2 samples.

Results

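The genes described here are those of the NADPH oxidase family and of inducible nitric oxide synthase: Nox1, Noxo1, Noxa1, Cyba, Cybb, Duox1, Duox2, Duoxa1, Duoxa2 and Nos2. They were chosen by symbol, and all 10 were found among the 35529 genes of the table. RNA was measured in 2 sequencing libraries. The control library came from normal colon of C57BL/6 wild-type mice that were given neither azoxymethane (AOM) nor dextran sodium sulfate (DSS), and the other from colon adenomas of C57BL/6 wild-type mice given both, a carcinogen followed by injury of the colonic mucosa. Each library was made from RNA pooled from 6 animals, so each group holds 1 library, called here the control library and the adenoma library. The spread between animals is lost in such a pool, and the differences below have no replicate check and no test between the groups was possible. The labels used here name no doses, times or ages.

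NADPH oxidases are membrane enzymes that pass electrons from NADPH to oxygen and so make superoxide or hydrogen peroxide. In the colon NOX1 is known as the oxidase of epithelial cells, NOX2 (encoded by Cybb) as that of phagocytes, and DUOX2 as an apical hydrogen peroxide source that responds to microbes. NOS2 makes nitric oxide from arginine and is known to be induced by inflammatory cytokines in epithelium and macrophages.

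Values are RPKM, reads per kilobase of gene length scaled to sequencing depth, as the authors deposited them. The reads behind the values totalled 29548883 (control library) and 33174626 (adenoma library). Ratios are RPKM in the adenoma library over RPKM in the control library, or the inverse where lower. Their 95% intervals are exact binomial (Clopper-Pearson) intervals from approximate reads and cover counting error only. Log2 values were taken as log2((adenoma RPKM + 1)/(control RPKM + 1)) and understate the differences of low genes.

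Cyba and Duoxa2, which encode partner proteins of the oxidases, were the members that stood at least 2-fold higher in the adenoma library. The catalytic genes did not go the same way in the deposited RPKM. Nox1 and Duox2 were lower, Cybb and Duox1 were close in both libraries, and Nos2 was higher from a low level. With the trend over transcript length subtracted, Duox2 stood at a log2 value of -0.13, beside a median of -0.19 over all genes. Of the 10 members, 8 had at least 1 RPKM in either library. On the log2 scale 2 of these 8 were at least 2-fold higher, against 14.0% of all 16517 genes with at least 1 RPKM, and 0 were at least 2-fold lower, against 11.0%. On the plain ratio of RPKM, an alternative added after the values were seen, Nos2 also passed 2-fold upwards and Nox1 downwards, which makes 3 higher (18.7% of all genes) and 1 lower (18.1%).

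**Figure D1:**
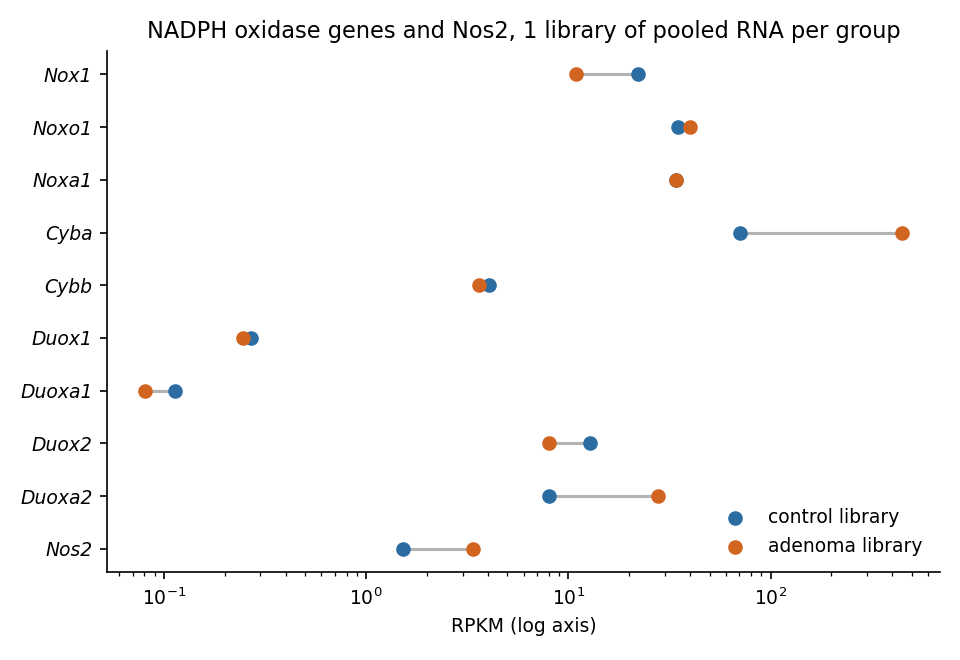
RPKM of the 10 genes in the control library (blue) and the adenoma library (orange) on a log axis, with 1 point per pooled library and a grey line joining the points of a gene. Cyba went from 70.3 to 446 RPKM and Duoxa2 from 7.99 to 27.7, while Duox1 and Duoxa1 lay under 1 RPKM in both libraries.

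In both libraries Cyba was the most abundant member per length, followed by Noxo1 and Noxa1, and Duox1 and Duoxa1 were the lowest. Nox1, Duox2 and Duoxa2 followed in that order in the control library, and Duoxa2, Nox1 and Duox2 in the adenoma library. Neighbours such as Noxo1 and Noxa1 in the control library (35.0 and 34.1 RPKM), or Cybb and Nos2 in the adenoma library (3.60 and 3.37 RPKM), cannot be put in order without replicates.

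The NOX1 enzyme consists of the catalytic subunit NOX1, the membrane partner p22phox encoded by Cyba, the organiser NOXO1 and the activator NOXA1, and it also needs the small GTPase RAC1. Nox1 stood at 22.1 RPKM in the control library and 10.9 in the adenoma library, 2.03-fold lower (1.87 to 2.20), with a log2 value of -0.96. Its organiser Noxo1 was at 35.0 and 39.9 RPKM, a ratio of 1.14 (1.08 to 1.20), and its activator Noxa1 at 34.1 and 34.0 RPKM, a ratio of 0.996 (0.931 to 1.07). Rac1 was at 121 and 109 RPKM. The catalytic subunit was therefore lower while the cytosolic subunits differed little, and within a library Noxo1 RPKM over Nox1 RPKM went from 1.59 to 3.67 and Noxa1 over Nox1 from 1.55 to 3.12.

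Cyba, shared by the NOX1 and NOX2 enzymes and needed for their stability at the membrane, was at 70.3 RPKM in the control library and 446 in the adenoma library, 6.35-fold higher (6.02 to 6.70). Its log2 value of 2.65 was the 155th highest of the 16517 genes. Neither catalytic partner was higher with it: Cyba RPKM over Nox1 RPKM went from 3.19 to 41.0, and Cyba over Cybb from 17.4 to 124. Cyba has the shortest transcript of the members, with 744 bases in GENCODE M21, and values depended on transcript length. When mRNA genes were split by length into 10 groups of like size, the median log2 value was 0.79 in the group with the shortest transcripts (up to 1128 bases) and -0.76 in that with the longest (from 6481 bases). After this trend was subtracted, Cyba stood at 1.70.

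The bases before an annotated start of Nox1 and of Cyba are shown because the subunits of 1 enzyme differed in direction. They are the 250 bases before a RefSeq start on GRCm38.p6, both on the minus strand and printed 5′ to 3′. Nox1 is at chrX:134111855-134112104 and Cyba at chr8:122432941-122433190. Neither stretch overlaps a GENCODE M21 exon. The Nox1 stretch lies inside the RefSeq gene, which spans 134086421 to 134137711, and so precedes an internal start and not the outermost one. Capitals mark matches on either strand to any of the motifs searched: the NF-kappaB type with the letters GGGNNTTCC, the STAT type with the letters TTCNNNGAA, AP-1 as TGANTCA, the TATA box as TATAAA, the PU.1 type as GAGGAA, TCF/LEF as CTTTGAT, and the GC box as GGGCGG, which was added after the sequences were seen.
Nox1: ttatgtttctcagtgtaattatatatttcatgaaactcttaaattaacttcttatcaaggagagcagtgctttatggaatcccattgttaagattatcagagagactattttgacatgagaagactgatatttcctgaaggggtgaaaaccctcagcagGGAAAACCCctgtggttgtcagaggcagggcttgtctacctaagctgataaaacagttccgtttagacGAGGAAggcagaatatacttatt
Cyba: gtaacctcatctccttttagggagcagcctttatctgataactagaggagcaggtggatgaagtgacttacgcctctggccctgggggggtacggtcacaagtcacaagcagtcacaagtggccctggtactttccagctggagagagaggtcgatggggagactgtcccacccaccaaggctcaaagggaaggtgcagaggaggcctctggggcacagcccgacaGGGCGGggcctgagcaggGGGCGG

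The Nox1 stretch is AT-rich, with a GC content of 38.0% against a median of 52.4% over 32817 promoters of this length. It holds 1 NF-kappaB-type match, 83 to 91 bases before this internal start, and 1 PU.1-type match. Such letters occur in 4.97% and 23.3% of all promoters. The Cyba stretch has a GC content of 60.0% and 2 GC boxes within 24 bases of the start, a motif that 32.7% of promoters hold. A match is a description of these letters, and no binding was measured.

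The phagocyte enzyme NOX2 differed little in its catalytic gene. Cybb was at 4.03 RPKM in the control library and 3.60 in the adenoma library, 1.12-fold lower (0.996 to 1.26). Its cytosolic subunits Ncf1 (p47phox) and Ncf4 (p40phox) were at 4.97 and 5.77 and at 6.26 and 9.83 RPKM, and the haematopoietic GTPase Rac2 was at 9.12 and 9.79. The ratio of Ncf4 was 1.57 (1.35 to 1.83). Of the 7 genes of the complex, 6 were found by symbol. Cyba was the 1 gene of the 6 at least 2-fold higher, with 0 lower, beside 14.0% and 11.0% of all genes.

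Markers of phagocytes did not move as 1 group beside Cybb. The 10 neutrophil markers summed to 115 RPKM in the control library and 391 in the adenoma library. Among the 5 above 1 RPKM, 3 were at least 2-fold higher and 0 lower, beside 14.0% and 11.0% of all genes. S100a8, S100a9 and Retnlg were the 3. These and Ltf were under 1 RPKM in the control library and passed the filter through the adenoma library alone, which favours higher calls. Ly6g, which held most of the control sum, was at 113 and 83.2 RPKM, a log2 difference of -0.43, or -1.35 after length adjustment. Elane and Ngp were listed at 0 in the control library, and the receptor Cxcr2 was at 0.0389 and 0.0307 RPKM. The 11 macrophage markers summed to 708 and 1214 RPKM, with none at 0. Of them, 1 was at least 2-fold higher (C1qa) and 1 lower (Cd163), beside 14.0% and 11.0% of all genes. Cd163 passed the filter through the control library alone, which favours lower calls. After length adjustment C1qa stood at 0.22 and Cd163 at -0.78, neither past 2-fold. In pooled tissue, fewer cells of a type and less RNA per cell cannot be told apart, and the part of these cells in the values of Cyba, Cybb and Nos2 was not tested.

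DUOX enzymes leave the endoplasmic reticulum only with a maturation factor, DUOXA1 for DUOX1 and DUOXA2 for DUOX2. Duox2 was at 12.8 RPKM in the control library and 8.01 in the adenoma library, a ratio of 0.626 (0.587 to 0.667). Its maturation factor Duoxa2 went the other way, at 7.99 and 27.7 RPKM, 3.47-fold higher (3.09 to 3.89), with a log2 value of 1.68, the 630th highest. Duoxa2 RPKM over Duox2 RPKM thus went from 0.624 in the control library to 3.46 in the adenoma library.

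The other pair was barely detected. Duox1 was at 0.270 and 0.246 RPKM, which are 42.0 and 43.0 reads, a ratio of 0.912 (0.582 to 1.43). Duoxa1 was at 0.113 and 0.0805 RPKM, about 8.24 and 6.59 reads, a ratio of 0.713 (0.241 to 2.46). No difference was detected in either gene. For counting error alone, the interval of Duox1 stays within 2-fold either way, while that of Duoxa1 reaches past 2-fold in both directions. Duox2 RPKM was 47.4 times that of Duox1 in the control library and 32.5 times in the adenoma library, so the DUOX2 pair held nearly all of the measured DUOX transcripts in both.

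The genes of both pairs lie next to each other on chromosome 2 of GRCm38.p6. Duox2 (122279246 to 122298740, minus strand) and Duoxa2 (122298900 to 122302885, plus strand) face each other head to head with 159 bases between their outermost RefSeq ends, and Duoxa1 (122303540 to 122313763, minus strand) and Duox1 (122313010 to 122347972, plus strand) follow. The interval between Duox2 and Duoxa2, at chr2:122298741-122298899, is shown on the plus strand, in the direction of Duoxa2. It is shown because its genes differed in direction in the deposited RPKM. Capitals mark the same motifs as above.
Duox2-Duoxa2: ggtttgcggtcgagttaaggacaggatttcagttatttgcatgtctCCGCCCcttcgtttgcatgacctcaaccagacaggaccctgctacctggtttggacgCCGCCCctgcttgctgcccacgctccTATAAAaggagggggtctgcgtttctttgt

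The interval holds 1 TATA box on the Duoxa2 side, 25 to 30 bases before the Duoxa2 start, a motif found in 7.96% of promoter stretches of the same length. It also holds 2 GC boxes read on the opposite strand (29.2% of stretches). No match to the other motifs was found in these letters. The nearest genes outside the cluster also went opposite ways: Sord, sorbitol dehydrogenase, beside Duox2, was at 42.7 and 17.8 RPKM, and Shf, an adaptor protein gene beside Duox1, at 4.76 and 13.0.

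Some values of the cluster are uncertain because transcripts overlap. Of the 50-base stretches of the longest Duoxa2 transcript, 41.1% also occur, in sense or antisense, in a Duoxa1 transcript that runs into it. Whether the counting used strand is not given in the sources used here. Duox1 and Duox2 are paralogs and share 6.84% of the 50-base stretches of Duox2. Outside the cluster, 44.8% of those of Noxo1 also lie in transcripts of Tbl3 on the other strand (12.2 and 18.0 RPKM), and 13.9% of those of Nox1 in Cstf2 (12.0 and 8.66 RPKM). None was shared for Cyba, Cybb and Nos2.

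The neighbours of the remaining members showed no common direction. Noxo1 (chromosome 17, 24696234 to 24700530, plus strand) lies between Gfer, at 19.0 and 27.6 RPKM, and Tbl3. Noxa1 (chromosome 2, 25085667 to 25095205, minus strand) touches the end of Entpd8, an ectonucleotidase gene, at 35.3 and 10.2 RPKM. The genes on either side of these are Nsmf, at 12.8 and 15.8, and Nrarp, at 10.7 and 4.88. Nox1 (chromosome X, 134086421 to 134137711, minus strand) lies between Sytl4, at 2.42 and 0.745, and Xkrx, at 0.0824 and 0.0524. Cybb (chromosome X, 9435252 to 9487766, minus strand) has H2al1k, at 0.0628 and 0, and H2al1o, listed at 0 in both libraries, as its nearest coding neighbours.

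**Figure D2:**
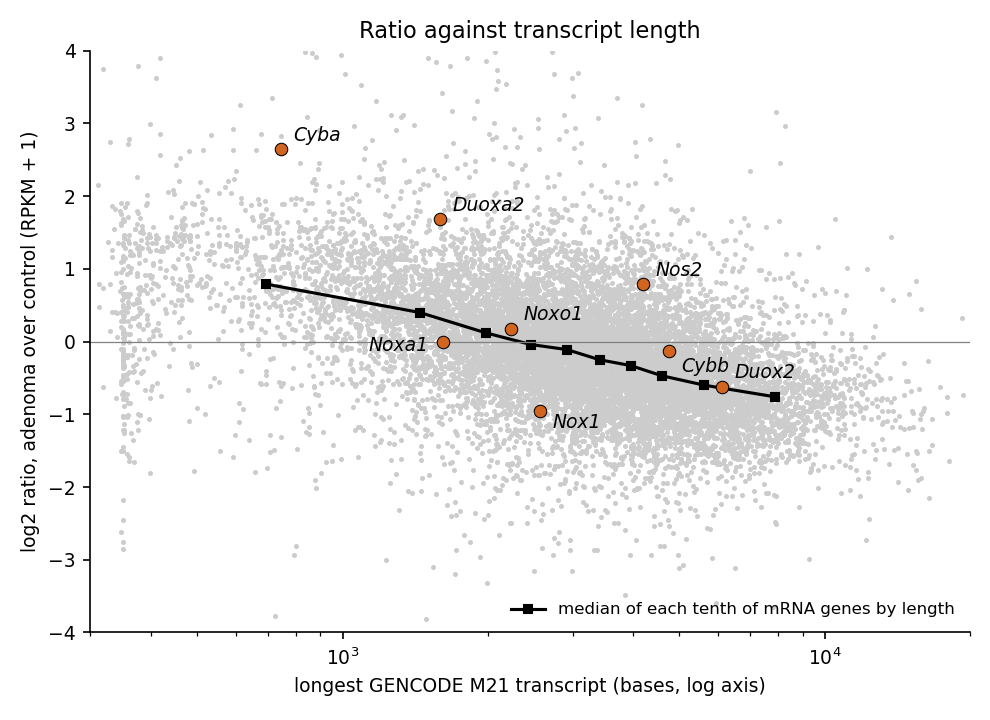
Log2 ratio of adenoma over control RPKM (each plus 1) against the length of the longest GENCODE M21 transcript (log axis) for mRNA genes with at least 1 RPKM in either library (grey; genes beyond the axis limits are not drawn). The black squares, medians of 10 groups of the genes by length, go from 0.79 to -0.76, and Cyba (2.65), Duoxa2 (1.68) and Nos2 (0.79) lie above them, Nox1 (-0.96) below, and Duox2 (-0.62) next to them.

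Transcript length bears on the contrast of enzyme and maturation factor, since the longest transcript has 6112 bases for Duox2 and 1592 for Duoxa2. After the length trend was subtracted, Duox2 stood at -0.13, beside a median of -0.19 over all genes with a length, and Duoxa2 at 1.18. Nox1 was at -1.07 and Nos2 at 1.0 on this scale, so that 3 members were at least 2-fold higher, against 5.67% of all genes, and 1 was lower, against 11.3%. Noxa1 was at -0.49, Noxo1 at -0.02 and Cybb at 0.18.

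The scale between the libraries also mattered. The deposited RPKM summed to 629215 in the control library and 828667 in the adenoma library, and rescaling both to equal sums moved the median log2 value of all genes from -0.02 to -0.35. Of the genes past 2-fold, 56.1% were higher before this step, 27.6% after it and 33.4% after length adjustment. At equal sums Cyba (2.26) and Duoxa2 (1.31) remained at least 2-fold higher and Nox1 (-1.33) became 2-fold lower. Noxo1, at 0.18 before, was at -0.20, and Duox2 was at -0.98.

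**Figure D3:**
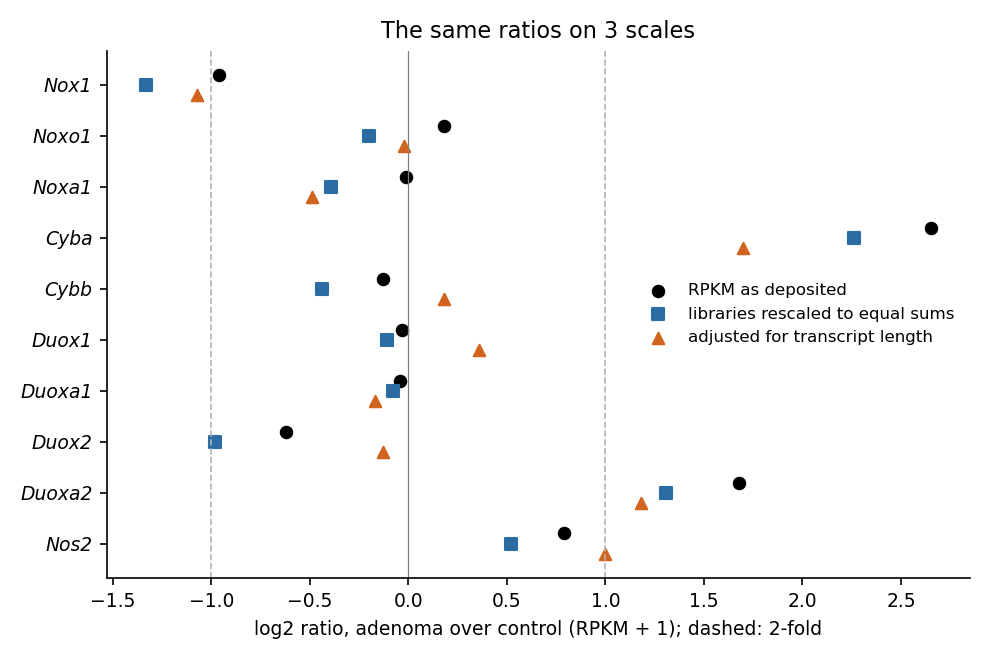
Log2 ratio of adenoma over control RPKM (each plus 1) of each member on the scale as deposited (black circles), with the libraries rescaled to equal sums (blue squares) and after subtraction of the trend over transcript length (orange triangles); dashed lines mark 2-fold. Cyba and Duoxa2 lie above 1 on each of these scales, and Noxo1, Cybb and Duox1 change sides of 0.

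Nos2 was low in both libraries, at 1.53 RPKM in the control library and 3.37 in the adenoma library, 2.21-fold higher (1.86 to 2.63). The log2 value of 0.79 stayed under 2-fold because the level is close to the pseudocount of 1. The gene lies on chromosome 11 (78920787 to 78960226, plus strand) between Lyrm9, at 2.05 and 2.31 RPKM, and Lgals9, which encodes galectin-9, at 75.0 and 97.6. The constitutive synthases were not higher: Nos1, the neuronal form, was at 1.43 and 0.220 RPKM, and Nos3, the endothelial form, at 1.17 and 0.994. Nostrin, a NOS3-binding trafficking protein and the most abundant gene of their list, was at 24.8 and 25.6. The 5 endothelial markers summed to 32.5 RPKM in the control library and 15.2 in the adenoma library, each lower. The part of endothelium in the level of Nos3 was not tested.

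Genes that supply or compete with NOS2 did not move as 1 group. The arginine-consuming enzyme Arg1 was at 0.275 and 35.4 RPKM, 129-fold higher (73.4 to 249), and Arg1 RPKM over Nos2 RPKM went from 0.180 to 10.5. Ddah2, which is known to break down methylarginine inhibitors of the synthases, was 6.33-fold higher (5.58 to 7.24), while Ddah1 was at 6.58 and 3.93 RPKM. Of 8 genes of arginine supply and competition, 7 had at least 1 RPKM in either library. On the log2(RPKM + 1) scale 2 of these were at least 2-fold higher, Arg1 and Ddah2, with 0 lower. The shares of all genes were 14.0% and 11.0%. On the plain ratio 3 genes of this list were higher and 1 lower, beside 18.7% and 18.1% of all genes. Arg2 was at 0.836 and 2.53 RPKM and the arginine transporter Slc7a1 at 4.43 and 2.18. Arg1 and Arg2 passed the filter of 1 RPKM through the adenoma library alone, which favours higher calls. The most abundant of the list, the urea cycle enzyme Asl, was at 25.9 and 43.2 RPKM.

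Of 6 genes for tetrahydrobiopterin, the cofactor of NO synthases, 1 passed 2-fold upwards and 0 downwards, beside 14.0% and 11.0% of all genes. Their median was 0.65. The gene past 2-fold was Pts, at 21.6 and 58.4 RPKM. Gch1, which encodes the first enzyme of the pathway, was at 6.29 and 12.7, a ratio of 2.02 (1.84 to 2.21), and Spr, the most abundant, at 48.0 and 82.9. The subunits of the NO receptor guanylate cyclase were lower instead, with Gucy1a3 at 3.31 and 0.900 RPKM, 3.68-fold lower, and Gucy1b3 at 4.01 and 1.85. Markers of smooth muscle, where this receptor is known to act, summed to 1663 and 1373 RPKM. Of the 5, 1 was at least 2-fold lower (Myh11) and 0 higher, beside 11.0% and 14.0% of all genes. The part of smooth muscle in the values of Gucy1a3 and Gucy1b3 was not tested.

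**Figure D4:**
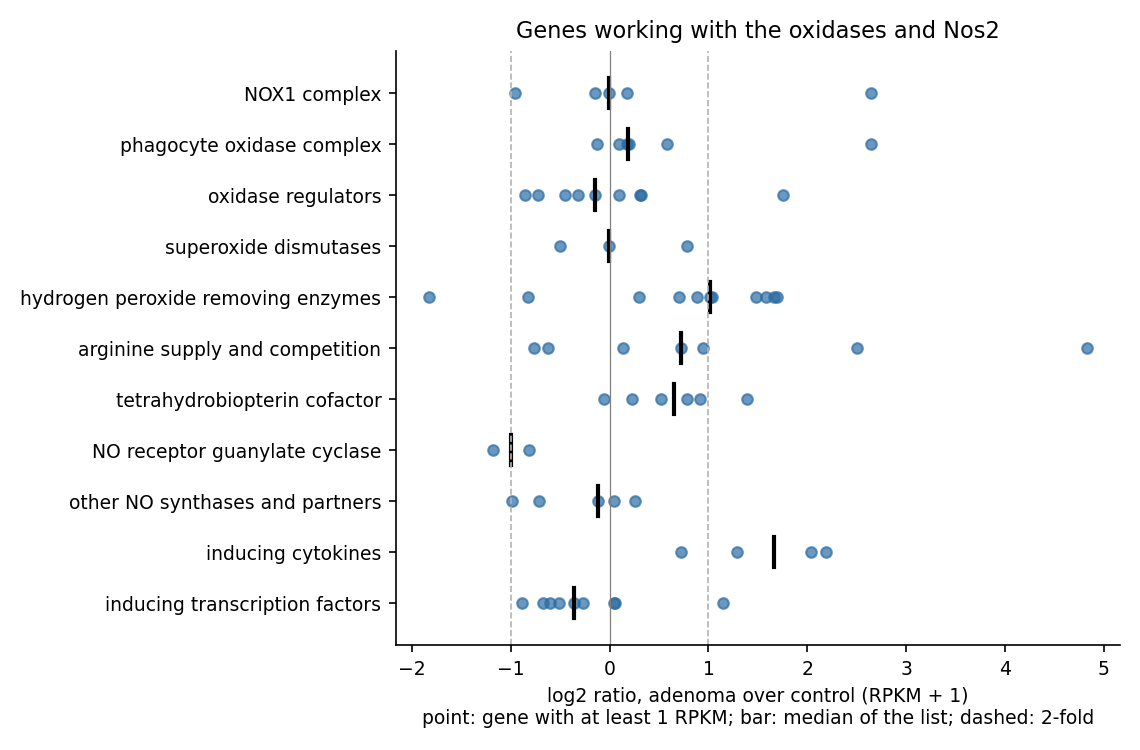
Log2 ratio of adenoma over control RPKM (each plus 1) for genes that work with the oxidases and Nos2; each point is a gene with at least 1 RPKM in either library, bars are list medians and dashed lines mark 2-fold. Inducing cytokines have the highest median (1.67), the receptor guanylate cyclase the lowest (-1.0), and Cyba stands alone at 2.65 in both oxidase complexes. Of the inducing cytokines drawn, Tnf, Il6 and Il17c reached 1 RPKM in the adenoma library alone.

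Enzymes that remove the products of the oxidases went both ways. Of 11 genes for removal of hydrogen peroxide, 6 were at least 2-fold higher and 1 lower, beside 14.0% and 11.0% of all genes. Their median was 1.02 against -0.02 for all genes. After length adjustment 2 were higher and 1 lower, beside 5.67% and 11.3% of all genes. The most abundant in the adenoma library, the gut glutathione peroxidase Gpx2, was at 508 and 1046 RPKM, and the peroxiredoxins Prdx1, Prdx2 and Prdx4 were at 277 and 829, 138 and 388, and 47.0 and 151 RPKM. Gpx3 and Gpx4 were 2.05-fold and 3.34-fold higher, and Prdx6, the most abundant in the control library, was the 1 gene at least 2-fold lower, at 984 and 276 RPKM. Superoxide dismutases stayed within 2-fold, with Sod1 at 202 and 347, Sod2 at 24.7 and 24.6 and Sod3 at 23.5 and 16.3 RPKM. Haem peroxidases, which use hydrogen peroxide, were low: Lpo was the most abundant at 4.59 and 3.64 RPKM, and the neutrophil gene Mpo was listed at 0 in the control library and at 0.107 in the adenoma library.

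Among cytokines known to induce Nos2 or Duox2, 4 of 9 had at least 1 RPKM in either library. Of these, 3 were at least 2-fold higher and 0 lower, beside 14.0% and 11.0% of all genes. The 3 were Tnf (0.962 and 7.09 RPKM), Il1b (3.90 and 21.4) and Il6 (0.187 and 1.90). Tnf, Il6 and the fourth gene, Il17c (0.310 and 1.15 RPKM), passed the filter through the adenoma library alone, which favours higher calls. The gene of Il17c lies beside Cyba on chromosome 8. On the other side of Cyba, Mvd, an enzyme of cholesterol synthesis, was at 46.3 and 50.6. Ifng was at 0.0841 and 0.125 RPKM, and Il22 was listed at 0 in the control library and at 0.637 in the adenoma library. Of 9 genes for transcription factors of these pathways, 1 was at least 2-fold higher and 0 were lower, beside 14.0% and 11.0% of all genes. The 1 was Cebpd, at 14.9 and 34.4 RPKM, which stood at 0.77 at equal sums. The most abundant factor in the control library, Irf1, was at 58.7 and 31.2 RPKM, and Stat3 at 39.2 and 24.4. After length adjustment Irf1 stood at -1.14, past 2-fold lower.

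Of the other catalytic oxidases, Nox3 was listed at 0 in both libraries and Nox4 was at 0.0676 and 0.112 RPKM. Of 10 oxidase regulators, 9 had at least 1 RPKM in either library. On the log2(RPKM + 1) scale 1 of these was at least 2-fold higher and 0 lower, beside 14.0% and 11.0% of all genes. The 1 was Rac3, a GTPase related to Rac1, at 4.46 and 17.4 RPKM. After length adjustment Rac3 stood at 0.95 and 0 regulators were higher, beside 5.67% of all genes. On the plain ratio 1 was lower, beside 18.1% of all genes: Dock2, an activator of Rac in leukocytes, at 4.59 and 2.07. Over all partner lists, 74 genes were found besides the members, of which 61 had at least 1 RPKM in either library. Of these, 14 were at least 2-fold higher and 2 lower, beside 14.0% and 11.0% of all genes. Arg1, Tnf and Il6, among the higher, passed the filter through the adenoma library alone, which favours higher calls. Gucy1a3, among the lower, passed it through the control library alone, which favours lower calls. At equal sums the counts of partner genes were 11 higher and 10 lower, beside 1274 and 3347 of all 16517 genes. After length adjustment they were 10 higher and 2 lower, beside 5.67% and 11.3% of all genes.

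The labelled tissue was checked against its markers. The 8 epithelial markers summed to 9626 RPKM in the control library and 6288 in the adenoma library. Of them, 3 were at least 2-fold lower (Cdh1, Krt20 and Vil1) and 0 higher, beside 11.0% and 14.0% of all genes. Markers of differentiated colonocytes summed to 1512 and 234 RPKM, with Slc51a listed at 0 in both libraries. The 5 that were detected were each at least 2-fold lower, beside 11.0% of all genes. B cell markers summed to 51.2 and 63.0 RPKM, T cell markers to 9.05 and 16.8, and eosinophil markers to 1.42 and 6.87. Of 5 T cell markers, 4 had at least 1 RPKM in either library. Cd3d and Cd3g were at least 2-fold higher and 0 were lower, beside 14.0% and 11.0% of all genes. Cd3e was at 0.990 and 1.01 RPKM, Cd4 at 3.64 and 2.80 and Cd8a at 0.941 and 0.260. Cd3d and Cd3e passed the filter through the adenoma library alone, which favours higher calls. Of the eosinophil sum, Prg2 alone made up most, at 1.13 and 6.47 RPKM. The part of this cell mix in the values of Nox1, Duox2 and Duoxa2 was not tested.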

How the data were processed

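RNA was extracted with Trizol and pooled from 6 animals per group, per the labels' protocols. The platform is named in 2 ways there, Proton and Illumina. The submitters' processing notes name the build GRCh37, a human assembly, although the symbols are those of mouse. Aligner, counting method and annotation: not given in the sources used here. Per the file headers, what the authors deposited is RPKM, 1 column per group.

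Read totals were recovered from microRNA and snoRNA genes of known RefSeq length. With them, 129 of 182 such genes (control) and 144 of 200 (adenoma) came within 0.01 of a whole read. Reads per gene used the longest GENCODE M21 transcript (GRCm38), found for 15493 of 16517 genes (93.8%). At an annotated length Duox1 and Duoxa2 gave whole reads and Cybb whole multiples of 0.5 reads, while those of the other members are approximate, since the authors' lengths may differ. Genes reaching 1 RPKM in either library were kept, and 2-fold was the threshold. The length trend was the running median over 20 bins of mRNA genes. Members, lists and tests were chosen with earlier results of these data known. All members are named. Partner genes are named when past 2-fold, when most abundant in their list or when a subunit of an oxidase complex, and each locus by its nearest protein-coding neighbours. Other genes of these lists were named after their values were seen. Some genes of the lists are not reported here. Promoters are from RefSeq (GRCm38.p6), matched for 9 of 10 members. With 2 libraries, no gene was named for likeness of pattern. Steps were tested on simulated data with Python 3.11.15, numpy 2.4.6, pandas 2.3.3 and scipy 1.17.1.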

Additional observations from a re-analysis of the deposited data

How the results depend on the processing

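Alternatives were pseudocounts of 0.1 and 5, no filter or a filter at 5 RPKM, equal sums, the median ratio, the upper quartile, a trimmed mean of log ratios, length adjustment, mRNA genes alone, thresholds of 1.5-fold and 4-fold and, added after the values were seen, the plain ratio. The 2 members at least 2-fold higher became 3 with a pseudocount of 0.1, after length adjustment, at 1.5-fold and on the plain ratio, and 1 at 4-fold. The 0 lower became 1 with a pseudocount of 0.1, at equal sums, after length adjustment and on the plain ratio, and 2 at 1.5-fold. Over all scales and pseudocounts Cyba ranged from 1.70 to 2.72, Duoxa2 from 1.18 to 1.79, Nos2 from 0.36 to 1.14, Nox1 from -1.33 to -0.77 and Duox2 from -0.98 to -0.13, while Noxo1, Noxa1, Cybb and Duox1 changed sign. The 14 partner genes that were higher became 22 at 1.5-fold and 4 at 4-fold. The 2 lower became 6 with a pseudocount of 0.1, 1 with 5, 1 with a filter at 5 RPKM, 10 at equal sums, 13 at 1.5-fold, 0 at 4-fold and 7 on the plain ratio. Of all genes, the 2316 higher became 1309 with a pseudocount of 5, 1274 at equal sums, 879 after length adjustment, 1346 among mRNA genes, 4245 at 1.5-fold and 333 at 4-fold. The 1809 lower became 2858 with a pseudocount of 0.1, 654 with 5, 3347 at equal sums, 4067 at 1.5-fold, 179 at 4-fold and 2992 on the plain ratio. Beyond these constructions the cause was not tested. No paired analysis was possible because each group holds 1 pooled library. Depth limits Duoxa1 most, whose interval reaches past 2-fold in both directions, while the interval of Duox1 includes 1 and stays within 2-fold.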
